A study of Mus musculus with 13 samples.

Results

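Apbb1ip, Pik3ap1, Plek, Bin2, Inpp5d, Vav1, Ptpn6 and Dock2 encode cytoplasmic proteins that carry signals from receptors of blood-derived cells to integrins, membrane lipids and the actin cytoskeleton. These 8 genes were taken by name from the deposited gene tables, where all 8 were found among 21056 genes. They were chosen by measured values, several having ranked among the strongest falls in expression after microglia were depleted from occluded brains, so that comparison describes them here and tests nothing. All 8 passed the filter on low counts, as did 16940 genes in all.

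RNA from the brains of 13 male mice was sequenced, each library from its own animal per the labels. All mice, controls included, carried CX3CR1creER/+ : Rosa26iDTR/+, a tamoxifen-inducible Cre at the Cx3cr1 locus with a Cre-dependent receptor for diphtheria toxin. Cx3cr1 is active in microglia and in other mononuclear phagocytes, so the model is not limited to microglia. All mice received 2 doses of tamoxifen by gavage, on alternate days, at 7 to 8 weeks of age. After 30 days, depleted mice (DE) received diphtheria toxin at 50 ng per g for 3 days and control mice (CON) received saline. The middle cerebral artery was occluded for 60 min (tMCAO) or sham surgery was done, at an age the labels give as 6 to 8 weeks, which cannot follow tamoxifen at 7 to 8 weeks by 30 days. Sham surgery gave 3 control libraries (sham_CON) and 4 depleted ones (sham_DE), and occlusion 4 control (tMCAO_CON) and 2 depleted ones (tMCAO_DE). Neither the brain region nor the time from occlusion to sampling is given in the sources used here. The title of tMCAO_CON replicate 4 set its group, although its treatment entry reads sham surgery.

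Receptors with tyrosine-based motifs recruit kinases of the Src and Syk families, and the signal then divides. One branch loads the small GTPase Rap1, which switches integrins to their adhesive state. Another branch activates phosphoinositide 3-kinase and Rac, and phosphatases shut both branches down. In brain, most cells that use these leukocyte versions of the machinery are microglia, while neurons and other glia use related genes of the same families.

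The 8 genes are spread over 7 chromosomes. In GENCODE's annotation of GRCm38, the build also called mm10, Apbb1ip lies on the forward strand at chr2:22774094-22875653 with 14 merged exons, and Inpp5d on the forward strand at chr1:87620312-87720507 with 29. Vav1 lies on the forward strand at chr17:57279100-57328031 with 27 merged exons. On the reverse strand are Pik3ap1 at chr19:41272377-41385102 with 17, Bin2 at chr15:100641077-100669553 with 12 and Ptpn6 at chr6:124720707-124738714 with 16. Chromosome 11 holds both others on its reverse strand, Plek at chr11:16971206-17052381 with 12 merged exons and Dock2 at chr11:34226815-34783892 with 55. Exons of Plek, Ptpn6 and Dock2 overlap exons of genes on the opposite strand, by 199, 195 and 460 bases, and whether counting used strand is not given in the sources used here. Cnrip1, the gene opposite Plek, had 57.0 ± 6.05 CPM in sham_CON and 49.8 ± 0.995 CPM in tMCAO_DE, and was looked up after its overlap was seen.

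Promoter sequence from RefSeq on GRCm38.p6, 250 bases before to 50 after the start, was at hand for 7 of the 8 genes, all but Bin2. The windows were searched on both strands for GAGGAAGT, the core bound by PU.1, the ETS factor of myeloid cells. It was found in 3 of 7 windows, against 3.20% of 32851 promoters of the same length. Apbb1ip held it on the reverse strand, 6 to 13 bases after the start. The other 2 windows are shown because the match lies just before the start. The 250 bases before the start are printed 5′ to 3′ on the gene's own strand, with the match in capitals, for Inpp5d at chr1:87620062-87620311 and Vav1 at chr17:57278850-57279099.
Inpp5d: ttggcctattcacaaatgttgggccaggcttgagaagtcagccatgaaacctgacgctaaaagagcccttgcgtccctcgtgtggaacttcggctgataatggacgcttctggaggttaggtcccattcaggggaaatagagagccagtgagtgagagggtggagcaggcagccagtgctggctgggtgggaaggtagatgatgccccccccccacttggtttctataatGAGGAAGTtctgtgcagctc
Vav1: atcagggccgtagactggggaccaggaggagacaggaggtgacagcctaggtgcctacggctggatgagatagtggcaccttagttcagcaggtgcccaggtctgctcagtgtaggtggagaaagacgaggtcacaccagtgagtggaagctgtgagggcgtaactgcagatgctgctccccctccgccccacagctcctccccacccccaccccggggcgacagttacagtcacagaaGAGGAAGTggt
In Inpp5d the match spans positions -20 to -13 from the start, and in Vav1 positions -11 to -4. The ETS-IRF composite motif and TGTGGTTT, a RUNX motif, were in 0 of 7 windows and in 2.72% and 1.78% of all promoters. The composite shares its ETS letters with the PU.1 core, so a match to one can overlap a match to the other. A match describes letters only, and its absence says only that they are not in this window.

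The libraries held 16239763 to 22080367 counts over the joined genes. CPM is the count scaled to the library size adjusted by its TMM normalisation factor, not to the total count alone. Csf1r, the receptor that microglia need to survive, stood at 92.0 to 93.4 CPM in sham_CON. After depletion in sham brains Csf1r stood at 6.10 to 15.97 CPM. In occluded brains Csf1r was at 76.4 to 97.4 CPM with microglia and 6.08 to 8.51 CPM after depletion, so every library matched its depletion label by Csf1r. The driver gene Cx3cr1 had 404 counts in sham_CON replicate 2 and 21 in each of the other sham_CON libraries, and 0 to 27 counts in depleted libraries. Sham_CON replicate 2 and sham_DE replicate 3 also held the highest S100a8, a neutrophil gene, at 8.49 and 8.11 CPM. Without these 2 libraries together, 5 of the 8 genes were lower in sham depletion, since Pik3ap1 (adjusted p = 0.0513) and Ptpn6 (adjusted p = 0.0708) then missed the threshold that they pass below.

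Depletion without stroke lowered 7 of the 8 genes, and Plek was the one that missed the test. Bin2 and Vav1 fell furthest, to 15.1% and 21.7% of their control level, and Ptpn6 least, to 54.3%. In RNA of whole tissue, fewer cells of a type and less RNA per cell cannot be told apart. The comparison, sham_DE against sham_CON, uses no library of the comparison that chose the genes. It was tested with edgeR's quasi-likelihood test over all genes, where an adjusted p (Benjamini-Hochberg) under 0.05 counts as a change, and 4.49% of genes were lower by that rule. The median log2 fold change of the 8 was -1.45, against -0.0035 over all genes. All 8 had every sham_DE library below every sham_CON library, as had 10.9% of genes.

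Apbb1ip encodes RIAM, the adaptor that binds active Rap1 and brings talin to integrins. Its level was 5.36, 4.61 and 4.74 CPM in sham_CON and 2.16, 1.68, 1.65 and 1.77 CPM in sham_DE, in replicate order. No depleted library came near a control library, and the change was -1.43 ± 0.17 log2 (SE, adjusted p = 0.000625). Plek encodes pleckstrin, a protein kinase C substrate of platelets and leukocytes that binds phosphoinositides. It had 15.5, 17.3 and 15.1 CPM in sham_CON and 12.5, 15.0, 11.6 and 14.1 CPM in sham_DE. The groups were apart only narrowly, and the difference of -0.26 ± 0.14 log2 (95% interval -0.57 to 0.05) did not pass (adjusted p = 0.251).

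Both lipid signalling genes fell, by similar amounts. Pik3ap1 encodes BCAP, which recruits phosphoinositide 3-kinase to receptor complexes. It had 2.25, 2.75 and 2.37 CPM in sham_CON against 0.919, 1.05, 0.731 and 0.798 CPM in sham_DE, a change of -1.47 ± 0.23 log2 (adjusted p = 0.00424). Inpp5d encodes SHIP1, the phosphatase that removes the lipid made by that kinase. It had 14.5, 15.4 and 16.04 CPM in sham_CON against 5.46, 6.68, 6.89 and 5.81 CPM in sham_DE, a change of -1.30 ± 0.11 log2. Its libraries were tight within each group, and its adjusted p, 6.5e-05, was the lowest of the 8.

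Among the genes that act on Rac and the membrane cytoskeleton, the depleted libraries were less even. Vav1 encodes a Rac exchange factor switched on by tyrosine phosphorylation. It had 4.35, 3.65 and 3.11 CPM in sham_CON and 1.14, 0.273, 1.46 and 0.342 CPM in sham_DE. Depleted replicates 2 and 4 held only 6 Vav1 counts each, and replicates 1 and 3 held 21 and 24. Its change was -2.24 ± 0.41 log2 (adjusted p = 0.00811). Dock2 encodes a leukocyte Rac exchange factor of another type, which drives migration. It had 5.85, 4.25 and 4.69 CPM in sham_CON against 1.35, 1.86, 2.86 and 1.03 CPM in sham_DE, a change of -1.48 ± 0.29 log2 (adjusted p = 0.00969). Bin2 encodes a BAR-domain protein that binds curved membrane in leukocytes. It had 4.94, 3.65 and 4.80 CPM in sham_CON and 1.14, 0.409, 1.10 and 0.057 CPM in sham_DE. The lowest Bin2 value rests on 1 count, in sham_DE replicate 4, which is also low for Vav1. Bin2 changed by -2.74 ± 0.42 log2 (adjusted p = 0.00341).

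Ptpn6 encodes SHP-1, the tyrosine phosphatase recruited by inhibitory receptors. It had 3.81, 3.53 and 4.80 CPM in sham_CON against 2.43, 2.27, 2.26 and 1.82 CPM in sham_DE. The depleted libraries lay close together, and the change was -0.88 ± 0.21 log2 (adjusted p = 0.0203). The call ended without sham_CON replicate 1 (adjusted p = 0.0533) or 3 (0.0846), without sham_DE replicate 2 (0.0505) or 4 (0.0596), and in the fit with the replicate number as a block (0.0536).

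**Figure D1:**
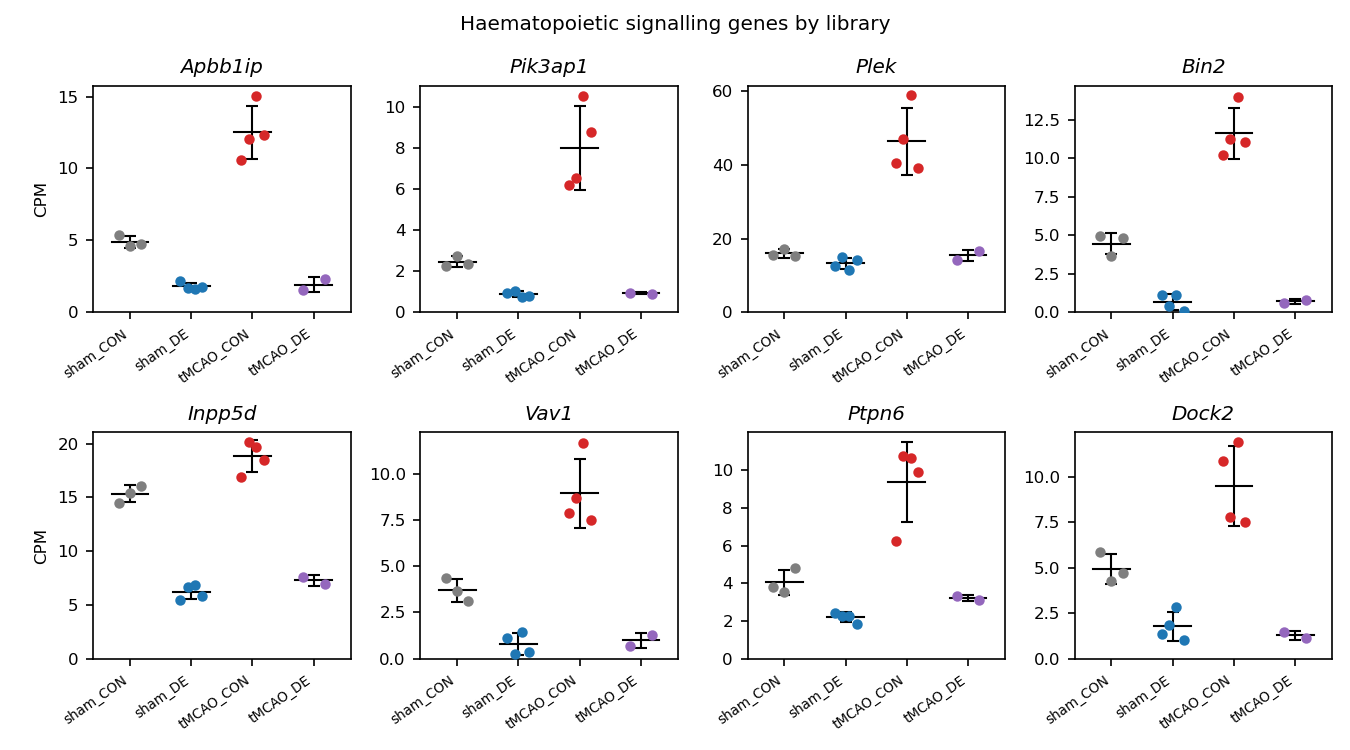
Level of each gene in CPM (y axis, from 0, own scale per gene) in every library (points) of the 4 groups (x axis), with mean and SD in black. Plek is the gene whose sham_DE libraries (11.6 to 15.0 CPM) come closest to sham_CON (15.1 to 17.3 CPM), and in all 8 panels tMCAO_CON is the highest group.

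Markers of cell types moved in the same comparison. All 10 microglia markers fell, from a sum of 287 to 326 CPM with microglia to 40.8 to 75.1 CPM without, with a median of -3.26 log2. Markers of border macrophages, the phagocytes of meninges and perivascular spaces, went the other way, with 7 of 8 higher and a summed 6.76 to 8.85 CPM against 32.4 to 45.0 CPM. Of 16940 genes, 1921 were called in either direction in this comparison, 760 of them lower. Monocyte markers summed to 79.6 to 136 CPM and 81.9 to 121 CPM, nearly all of it from Fn1 (59.8 to 111 and 63.4 to 100.2 CPM) and Vcan (19.4 to 22.6 and 17.5 to 21.3 CPM). The other 6 monocyte markers, Ccr2 and Ly6c2 among them, were each at 1.34 CPM or less in these libraries. Neutrophil markers ranged from 1.29 to 35.3 CPM and from 2.05 to 36.4 CPM, with Cxcr2 at 0 counts in all sham_CON libraries. Markers of T, B and NK cells summed to at most 2.34 CPM, with Nkg7 at 0 in sham_DE. Platelet markers, 5 of 8 listed being found, lay at 7.83 to 8.75 CPM and 7.37 to 10.3 CPM. Nearly all of it came from Gp1bb (5.68 to 6.72 and 5.79 to 7.86 CPM) and Itga2b, named after their values were seen. Ppbp, Tubb1 and Treml1 were each at 0.455 CPM or less, with Tubb1 at 0 in sham_CON. The part of any of these cell type markers in the falls of the 8 genes was not tested.

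The make-up of the set differed between the groups. Per gene length, on the FPKM scale (fragments per gene length and library size), the 8 genes summed to 7.77 ± 0.098 in sham_CON (SD, n = 3) and 3.75 ± 0.218 in sham_DE (SD, n = 4). Plek gave 27.6 ± 2.33% of that sum in sham_CON and 48.6 ± 6.81% in sham_DE, while Bin2 gave 14.2 ± 2.09% and 4.42 ± 3.47%. Vav1 went from 8.56 ± 1.36% to 3.88 ± 2.78% of the sum, and Ptpn6, at 10.03 ± 1.64% and 11.5 ± 0.809%, overlapped between the groups. Set against the FPKM of Csf1r in the same library, Plek was at 14.0 ± 0.943% in sham_CON and 126 ± 53.1% in sham_DE. Bin2 was at 7.23 ± 1.19% and 10.1 ± 9.06% of Csf1r. The ratios of Bin2 and Vav1 to Csf1r overlapped between the groups. Those of Plek, Apbb1ip, Pik3ap1, Inpp5d, Ptpn6 and Dock2 did not overlap and were higher in sham_DE. Csf1r itself stood at 10.7% of its control level in sham_DE, so any gene that fell less rises in this ratio. The share of all genes apart in this ratio was not computed, so the rises are no trait of these genes.

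**Figure D2:**
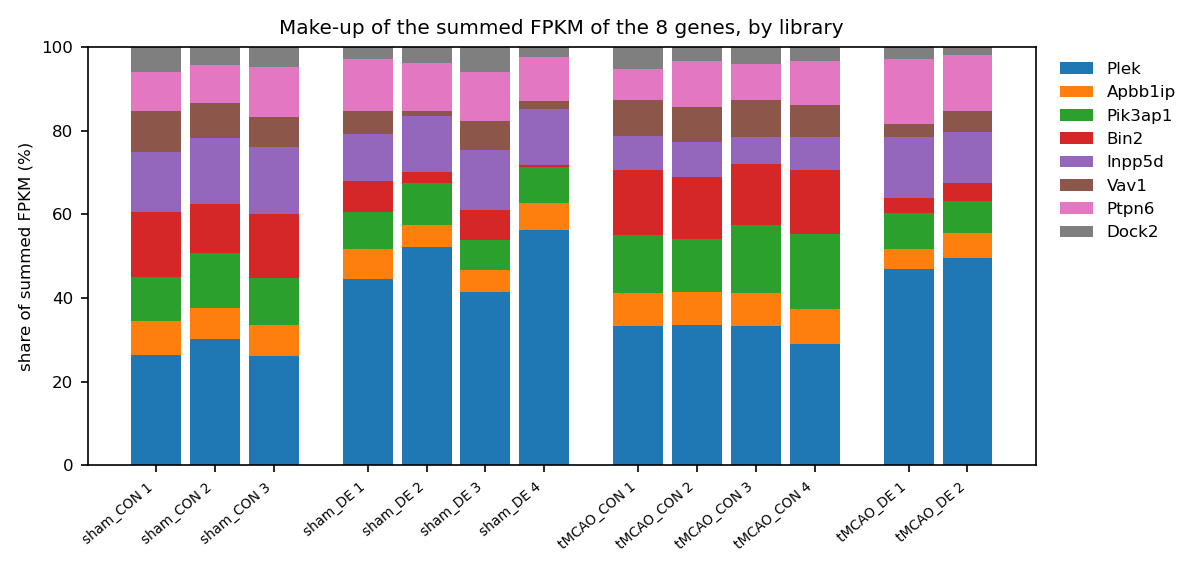
Share of the summed FPKM of the 8 genes taken by each gene (y axis, percent, stacked to 100) in each of the 13 libraries (x axis, group and replicate number). Plek takes 26.1 to 33.6% in the libraries with microglia and 41.4 to 56.3% in the depleted libraries.

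In sham_CON the order of levels per length was Plek at 2.14 ± 0.177 FPKM, Inpp5d at 1.19 ± 0.057, Bin2 at 1.10 ± 0.167, Pik3ap1 at 0.907 ± 0.103, Ptpn6 at 0.778 ± 0.121, Vav1 at 0.666 ± 0.114, Apbb1ip at 0.594 ± 0.0483 and Dock2 at 0.392 ± 0.0651 (SD, n = 3). The ranges over libraries of neighbours in this order overlapped from Inpp5d down to Apbb1ip, while Plek at the top and Dock2 at the bottom lay apart. The place of Pik3ap1 depends on its length: the authors' FPKM imply 2624 bases for it, against 5572 in GENCODE's merged exons. On GENCODE lengths it was the seventh of the 8 in place of the fourth.

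Stroke with microglia present raised 7 of the 8 genes, to between 1.92 and 3.25 times the sham level, and only Inpp5d missed the test. This comparison, tMCAO_CON against sham_CON, shares tMCAO_CON with the one that chose the genes, which favours higher values in tMCAO_CON. It also shares sham_CON with the depletion comparison above. Over all genes, 5.14% were called higher. Every tMCAO_CON library lay above every sham_CON library for all 8 genes, as for 13.1% of genes, and the median log2 fold change was 1.31 against 0.017 over all genes.

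The integrin and pleckstrin genes rose in each occluded library. Apbb1ip had 10.6, 12.1, 15.1 and 12.3 CPM in tMCAO_CON, a rise of 1.35 ± 0.16 log2 over sham_CON (adjusted p = 0.000409). Plek had 40.5, 46.9, 59.1 and 39.0 CPM, a rise of 1.54 ± 0.14 log2 (adjusted p = 5.5e-05). The occluded libraries of both genes all lay far above the sham range, and Plek reached 2.91 times its sham level.

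The lipid genes parted. Pik3ap1 had 6.18, 6.52, 10.5 and 8.78 CPM, a rise of 1.70 ± 0.21 log2 (adjusted p = 0.000472) and the highest of the 8. Inpp5d had 16.9, 20.2, 19.7 and 18.5 CPM, only 0.30 ± 0.10 log2 above sham_CON (95% interval 0.07 to 0.52, adjusted p = 0.0969). Its share of the summed FPKM was 15.3 ± 0.921% in sham_CON and 7.71 ± 0.852% in tMCAO_CON, as the genes beside it rose.

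Rac regulators and Bin2 rose with less certainty. Vav1 had 7.89, 8.68, 11.6 and 7.52 CPM, or 1.27 ± 0.36 log2 (adjusted p = 0.0451). Dock2 had 10.9, 7.77, 11.9 and 7.52 CPM, or 0.94 ± 0.27 log2 (adjusted p = 0.0472). Bin2 had 10.2, 11.2, 14.0 and 11.1 CPM, or 1.38 ± 0.35 log2 (adjusted p = 0.0284). These 3 calls sat near the threshold: without any 1 of the sham_CON libraries all 3 were lost, leaving 4 called genes. Bin2 also missed it without tMCAO_CON replicate 2, 3 or 4 (adjusted p of 0.0508 to 0.0727), Vav1 without any 1 of the tMCAO libraries (0.0535 to 0.107) and in the block fit (0.0593). Dock2 missed it without sham_DE replicate 2, without tMCAO_CON replicate 1, 2 or 3, and without either tMCAO_DE library (0.0558 to 0.116). Replicate 4 of tMCAO_CON, whose treatment entry reads sham, had Bin2, Vav1 and Dock2 at 11.1, 7.52 and 7.52 CPM, all above the sham_CON libraries.

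Ptpn6 rose too, with 6.23, 10.7, 10.6 and 9.89 CPM against 3.53 to 4.80 CPM in sham_CON. Replicate 1 was the lowest of these and still clear of sham_CON, and the change was 1.21 ± 0.20 log2 (adjusted p = 0.00297).

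Beside these rises, 2 of 10 microglia markers were called higher, Fcrls and Olfml3 (named after their values were seen), with a list median of -0.02 log2 and summed levels of 320 to 421 CPM in tMCAO_CON. Csf1r itself differed by -0.08 ± 0.22 log2 (adjusted p = 0.871). Border macrophage markers were called higher in 4 of 8 cases, against 5.14% of all genes, with a summed 14.6 to 25.2 CPM. Monocyte markers summed to 137 to 199 CPM, above the sham_CON range of 79.6 to 136 CPM, and 1 of the 5 tested was called higher, Fn1, which alone gave 116 to 175 CPM. The other monocyte markers except Vcan were each at 1.76 CPM or less. Fn1 and Vcan were named after their values were seen. Neutrophil markers summed to 1.36 to 3.94 CPM with Ly6g at 0, and markers of T, B and NK cells to 1.21 to 2.30 CPM. Platelet markers summed to 8.20 to 9.97 CPM, again mostly from Gp1bb and Itga2b. The part of these markers in the rises was not tested. Against Csf1r in the same library, Apbb1ip went from 3.90 ± 0.351% in sham_CON to 10.5 ± 0.639% in tMCAO_CON and Pik3ap1 from 5.94 ± 0.586% to 20.2 ± 3.31%. All 8 genes were apart between the groups in this ratio, Inpp5d among them at 7.80 ± 0.362% and 10.1 ± 0.736%. The share of all genes apart in it was not computed, and tMCAO_CON is a group that chose the genes.

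After depletion, none of the 8 genes was called changed by occlusion. Of all genes 12.4% were called in this comparison, tMCAO_DE against sham_DE, 6.59% higher and 5.84% lower. At that share, 0 of 8 genes lies near the background. It shares tMCAO_DE with the comparison that chose the genes, which favours lower values there, and tMCAO_DE has 2 libraries. The count of 0 from edgeR was also 0 with DESeq2 and with limma on log2 FPKM, and at an unadjusted p under 0.05 edgeR gave 1 gene, Ptpn6. Ptpn6 had 3.31 and 3.09 CPM in tMCAO_DE against 1.82 to 2.43 CPM in sham_DE, a difference of 0.54 ± 0.23 log2 (95% interval 0.04 to 1.05, adjusted p = 0.1499). Inpp5d, at 7.63 and 6.94 CPM against 5.46 to 6.89 CPM, was the other gene whose groups were apart, as were 19.5% of genes in that direction. Its difference was 0.23 ± 0.12 log2 (-0.04 to 0.50, adjusted p = 0.251).

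The remaining 6 genes overlapped between sham_DE and tMCAO_DE. Plek had 14.3 and 16.5 CPM in tMCAO_DE, and its difference of 0.21 log2 had an interval of -0.14 to 0.56. Apbb1ip had 1.56 and 2.28 CPM and an interval of -0.38 to 0.54 log2, and Pik3ap1 had 0.954 and 0.911 CPM and an interval of -0.55 to 0.71 log2. The values of all 3 genes lay among or close to the sham_DE values. Bin2 had 0.603 and 0.810 CPM, Vav1 0.703 and 1.27 CPM, and Dock2 1.46 and 1.11 CPM. At these low counts the intervals of the differences were wide, -1.17 to 1.34 log2 for Bin2, -0.81 to 1.47 for Vav1 and -1.26 to 0.35 for Dock2. Whether the effect of occlusion itself differs with depletion was not tested, since that difference contains the comparison that chose the genes.

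**Figure D3:**
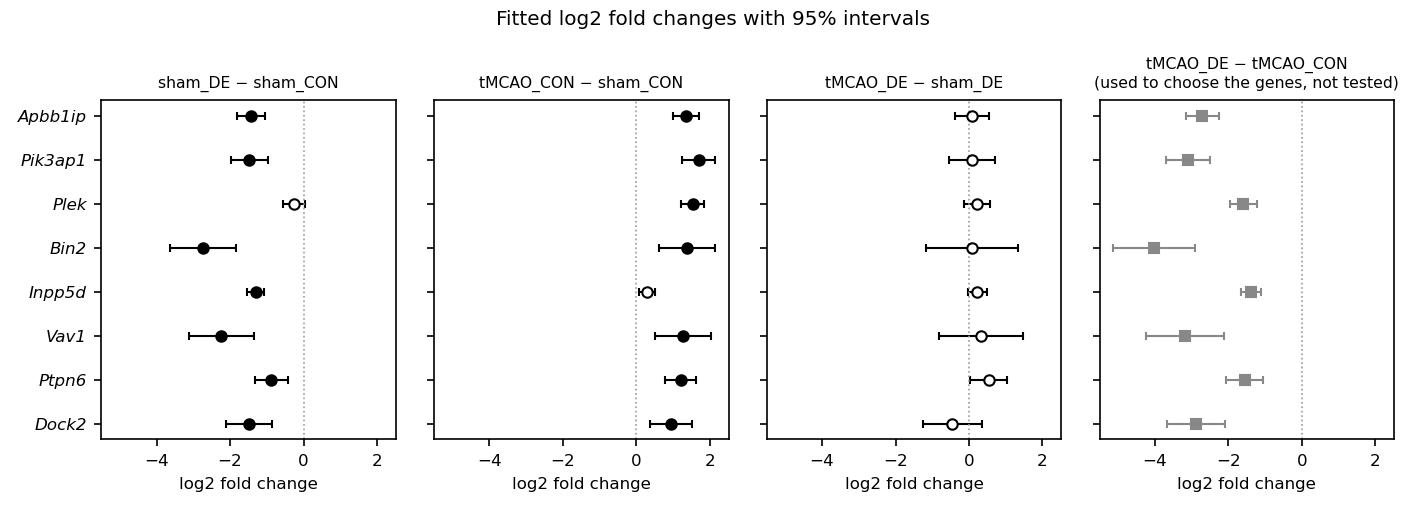
Fitted log2 fold change of each gene (y axis) with its 95% interval (x axis) in 4 comparisons, filled where the adjusted p was under 0.05, open where not, and grey squares where no test was made. Depletion in sham brains runs from -2.74 for Bin2 to -0.26 for Plek, occlusion with microglia from 0.30 for Inpp5d to 1.70 for Pik3ap1, and occlusion after depletion from -0.46 for Dock2 to 0.54 for Ptpn6.

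In occluded brains, where the genes were chosen, tMCAO_DE stood at 6.08% of tMCAO_CON for Bin2, 11.02% for Vav1, 11.7% for Pik3ap1, 13.5% for Dock2 and 15.3% for Apbb1ip. Plek was at 33.2%, Ptpn6 at 34.1% and Inpp5d at 38.7%. Ranked from the strongest fall among 16940 genes, Bin2 was number 21, Vav1 number 49, Pik3ap1 number 55, Dock2 number 66 and Apbb1ip number 79, and the other 3 ranked from 308 (Plek) to 413 (Inpp5d). These values describe the choice, as does the background there of 9.26% of genes called lower. Set beside the sham values, Inpp5d was at 40.5% of control in sham and 38.7% in occluded brains, and Plek at 83.3% and 33.2%. The microglia markers summed to 52.8 and 57.7 CPM in tMCAO_DE, and border macrophage markers to 36.7 and 48.8 CPM, and the part of either in these levels was not tested.

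For the 8 genes, 14 relatives from the same families were listed. None was called in either direction in sham depletion or in occlusion with microglia by edgeR, with medians of -0.11 and -0.02 log2. Of 16940 genes, 1921 were called in sham depletion and 1430 in occlusion with microglia, so 0 of 14 lies near the background. At an unadjusted p under 0.05 there were 4 and 2 relatives. DESeq2 called 2 in sham depletion (Dock5 and Inppl1) and 1 in occlusion (Dock3), and limma called 0 in both. Those genes were named after their values were seen. Bin1, an amphiphysin-family gene of neurons, muscle and oligodendrocytes, had 89.2 ± 4.41 FPKM in sham_CON and differed by -0.16 ± 0.06 log2 in sham_DE (adjusted p = 0.0928), where Bin2 fell by 2.74 log2. Ptpn11, which encodes the widely expressed phosphatase SHP-2, had 13.1 ± 1.04 FPKM in sham_CON and differed by 0.03 ± 0.07 log2 (adjusted p = 0.800). Inppl1, the widely expressed counterpart of Inpp5d, differed by -0.37 ± 0.12 log2 (adjusted p = 0.0628). Bank1, the B-cell scaffold related to Pik3ap1, had only 30 to 37 counts in sham_CON and differed by -0.65 ± 0.21 log2 (adjusted p = 0.0613), and Plek2 had 0 to 6. Raph1, Vav2 and Dock3 differed by -0.03, -0.15 and 0.10 log2 with adjusted p of 0.878, 0.218 and 0.397. In occlusion after depletion, where none of the 8 genes passed, Vav2 was called higher, at 0.30 ± 0.09 log2 (adjusted p = 0.0375). DESeq2 did not call it (0.0584), nor did the block fit (0.122), and leaving out either tMCAO_DE library ended the call (0.123 and 0.245). So did leaving out sham_CON replicate 3, sham_DE replicate 3 or 4, or tMCAO_CON replicate 1 or 2 (0.0503 to 0.0750). Each difference here is a gene's own, and the difference between a gene and its relative was not tested.

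**Figure D4:**
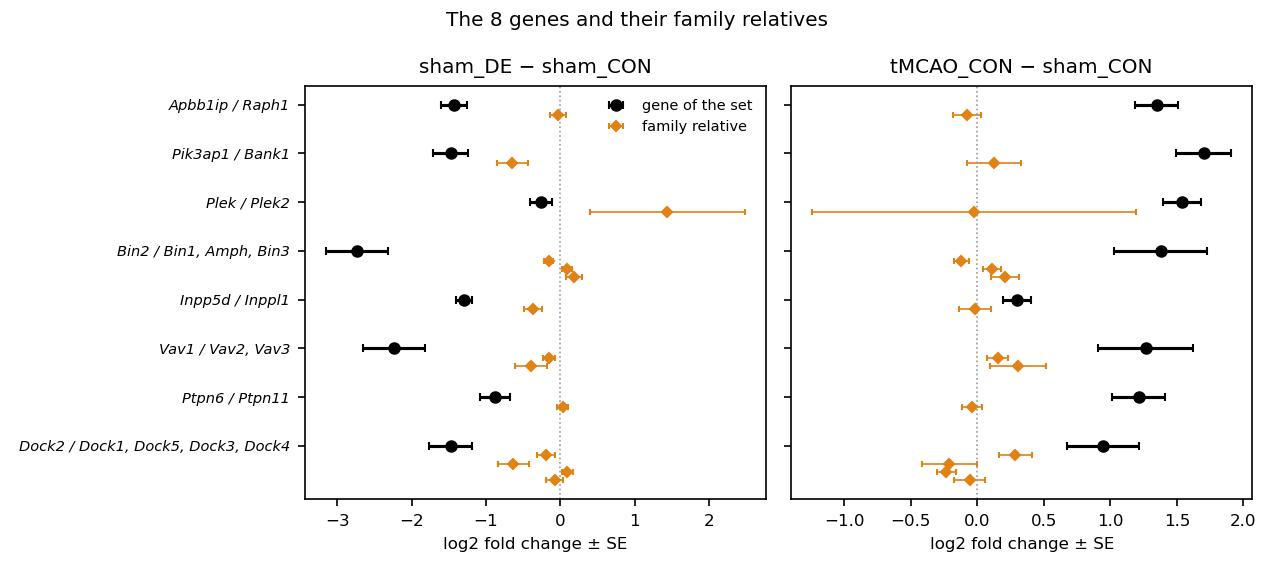
Log2 fold change ± SE (x axis) of each of the 8 genes (black circles) and of its listed family relatives (orange diamonds, in the order named on the y axis) for sham depletion and for occlusion with microglia. The relatives centre near 0 (medians -0.11 and -0.02), and Plek2, with 0 to 6 counts in sham_CON, has the widest error.

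Other genes of the same signalling routes moved in part. In sham depletion, where 4.49% of all genes were lower, the tyrosine kinase list had 7 of 17 lower, with a median of -0.46 log2. Tyrobp, the membrane adaptor DAP12, changed by -1.44 ± 0.24 log2 (adjusted p = 0.00573). Fgr, a Src-family kinase of myeloid cells, differed by 0.87 ± 1.10 log2 (adjusted p = 0.645), and the ubiquitous adaptor Grb2 by 0.64 ± 0.28 log2 (adjusted p = 0.145). Of the integrin activation list, 5 of 16 were lower (median -0.24). Itgam, the integrin subunit CD11b, changed by -2.12 ± 0.27 log2 (adjusted p = 0.00095), and the GTPase Rap1b, upstream of Apbb1ip's protein, by -0.40 ± 0.09 log2 (adjusted p = 0.0136). Itgax, the subunit CD11c, had only 0 to 7 counts in sham_CON and was at 2.22 ± 0.82 log2 (adjusted p = 0.0954). Evl, an actin regulator, was at -0.11 ± 0.11 log2 (adjusted p = 0.538).

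Of the Rac and actin list, 4 of 16 were lower (median -0.44). Was, the actin nucleation regulator of blood cells, changed by -1.55 ± 0.26 log2 (adjusted p = 0.00542). The GTPases Rac1 and Cdc42, used by all cells, differed by -0.07 ± 0.33 and -0.13 ± 0.05 log2 (adjusted p = 0.915 and 0.128). The 95% interval of Rac1 was wide, -0.78 to 0.64 log2. Rac2, the GTPase form of blood cells, was at 1.40 ± 0.53 log2 (adjusted p = 0.102). The phosphoinositide list had 3 of 17 lower (median -0.13). Pik3cg, the kinase subunit of leukocytes, changed by -1.69 ± 0.23 log2 (adjusted p = 0.00121). Akt1, a kinase at work in most cells, differed by -0.13 log2 (adjusted p = 0.159), and Dok2, a docking protein, by 0.35 ± 0.30 log2 (adjusted p = 0.467). Of 16940 genes, 1921 were called in either direction and 760 of them (4.49% of all) were lower. Over these 4 lists, 19 of 66 genes were lower and 0 higher by edgeR. At an unadjusted p under 0.05, 4 were higher, DESeq2 called 2 higher and limma called 0.

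In occlusion with microglia the tyrosine kinase and integrin lists had 8 of 17 and 8 of 16 called higher, with medians of 0.89 and 0.44 log2, the Rac and actin list 6 of 16 (0.48) and the phosphoinositide list 2 of 17 (0.25). Itgax rose by 2.91 ± 0.80 log2 (adjusted p = 0.0403), from only 0 to 7 counts in sham_CON. Rap1b rose by 0.35 ± 0.09 log2 (adjusted p = 0.0241). Of 16940 genes, 1430 were called in either direction and 870 of them (5.14% of all) were higher. Over the 4 lists together, 24 of 66 genes were called higher and 0 lower by edgeR. At an unadjusted p under 0.05 there were 3 lower, DESeq2 called 1 lower and limma 0. After depletion, occlusion raised 7 of the 66 genes and lowered 2, against 6.59% and 5.84% of all genes, so the lists' counts lie near the background.

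**Figure D5:**
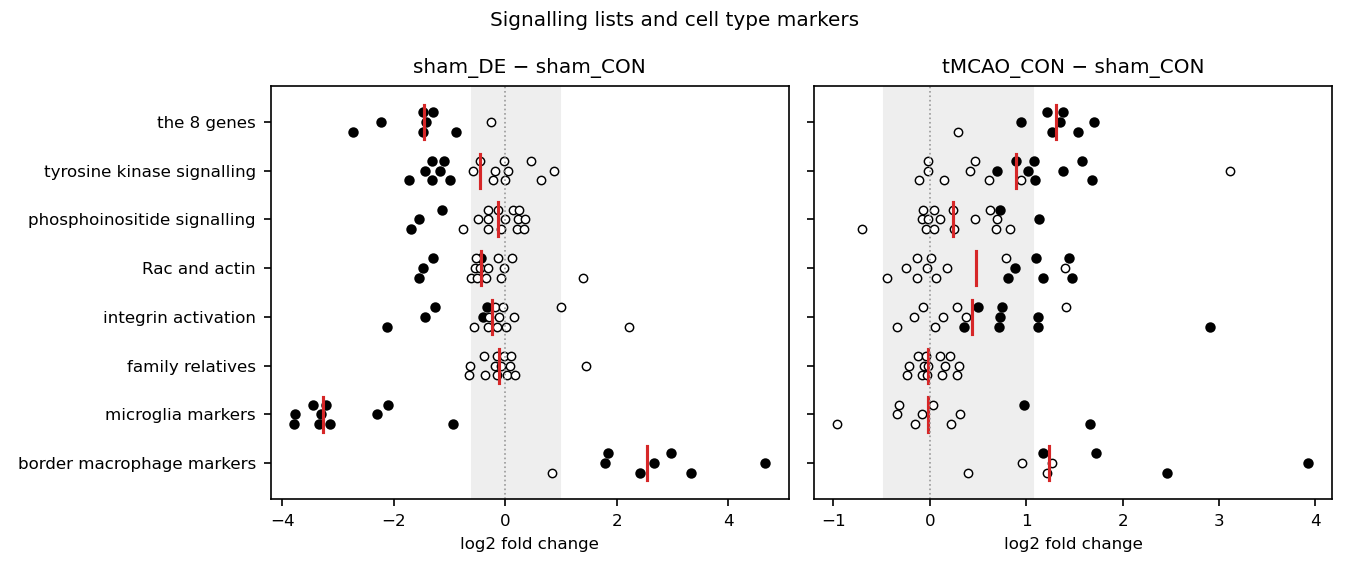
Log2 fold change (x axis) of every tested gene of each list (y axis) in sham depletion and in occlusion with microglia, filled where the adjusted p was under 0.05, with the list's median as a red line and the 5th to 95th percentile of all genes shaded. In sham depletion the microglia markers (median -3.26) lie below the 8 genes (median -1.45), and border macrophage markers (median 2.54) lie above 0.

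The 8 genes lay at unequal distances from their common profile. The mean of their log2 CPM profiles over the 13 libraries, each centred on its own mean, was taken as the set's profile. Apbb1ip stayed closest to it, with a root mean square difference of 0.200 log2, followed by Pik3ap1 (0.310) and Dock2 (0.344), and Bin2 was farthest (0.892). This distance mixes the size of a change with the noise of low counts, and Bin2 had 1 to 21 counts in sham_DE. Between pairs, Apbb1ip and Pik3ap1 were the most alike (0.251) and Plek and Bin2 the least (1.45). Among 12397 other genes with a mean of at least 1 FPKM, the nearest to the set's profile were C1qc (0.185), Hcls1 (0.218), Tyrobp (0.221), C1qa (0.249) and C1qb (0.265). C1qa, C1qb and C1qc encode the chains of complement C1q, and Hcls1 a cortactin-like actin adaptor of blood cells. C1qc stood at 31.0 ± 3.27 CPM in sham controls and 9.37 ± 1.92 after depletion, and in occluded brains at 55.6 ± 5.19 and 12.1 ± 2.24. Likeness here is a description of these 13 libraries.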

How the data were processed

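The members of the set and the lists were chosen with earlier results of these data known. The authors deposited 1 table per group with counts and FPKM per gene and library. The columns headed count hold whole numbers per gene and were read as counts that are not normalised. The deposited FPKM are scaled to gene length and library size. The submitters' processing notes name Cufflinks 2.1.1, Cuffdiff and mm10. Aligner, annotation and strand use: not given in the sources used here.

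Tables were joined by gene name, leaving out 25 (sham) or 26 (tMCAO) names turned into dates and summing 27 or 26 symbols with more than 1 entry. TMM factors scaled the counts, and filterByExpr removed 4116 genes. A single model of 4 group means over 13 libraries was fitted with edgeR 4.0.16 in R 4.3.3 (quasi-likelihood test, two-sided, Benjamini-Hochberg over 16940 genes, threshold 0.05), because tMCAO_DE has 2 libraries. The common biological coefficient of variation was 15.2%. Standard errors were approximated from the log2 fold change and its F statistic, and 95% intervals use the fit's degrees of freedom. Alternatives were DESeq2 1.42.0 (Wald test, and its size factors in edgeR), limma 3.58.1 on log2(FPKM + 0.1) and log2(FPKM + 1), other filters, only the 2 groups compared, a replicate block, each library left out, and sham_CON replicate 2 with sham_DE replicate 3 left out. The fit was run on simulated data with changes put only into genes above a set mean count and the same spread for every gene. A spread that differs between genes was not simulated. P-values weigh a difference between group means against the spread between libraries within groups, estimated over all 13 libraries. The genotype labels number the Rosa locus differently per library and were read as 1 genotype, an assumption.

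Genes named are the 8 members; per signalling list the 2 of highest mean FPKM and those of lowest and highest log2 fold change in sham depletion; the relative of highest mean FPKM in each family; the 5 genes nearest in profile; and Csf1r and Cx3cr1 as checks. Of these, 2 genes are not reported here. Protein motifs, planned too, were not analysed here.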

Additional observations from a re-analysis of the deposited data

How the results depend on the processing

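Among the 22 alternatives, depletion in sham brains kept 5 to 7 of the 8 genes lower and occlusion after depletion kept 0 called. The genes called in occlusion with microglia, 7 in the fit reported, numbered 4 to 7 when 1 library was left out and 4 when sham_CON replicate 2 and sham_DE replicate 3 were dropped. Inpp5d passed there only with limma on log2(FPKM + 1) (adjusted p = 0.0397), and Dock2 missed there without a filter on low counts (0.0536). With that limma scale Ptpn6 (0.0831) and Dock2 (0.0501) missed in sham depletion. Over all genes, the 1921 calls of sham depletion became 645 with only the 2 groups compared, 823 with the replicate block, 219 without those 2 libraries, and 591 to 3725 when 1 library was left out. The 1430 calls of occlusion with microglia became 564 to 1814 when 1 library was left out. For occlusion after depletion, 2106 became 1137 with only the 2 groups, 1341 with the block, and 453 to 2096 when 1 library was left out. For depletion in occluded brains, 3155 became 346 to 3873. The cause was not tested. Signs turned only in differences that had not passed the test. In occlusion after depletion with 1 library left out, Apbb1ip ranged from -0.22 to 0.33 log2, Bin2 from -0.28 to 0.48 and Vav1 from -0.15 to 0.77, with values below 0 without tMCAO_DE replicate 2 and, for Bin2, sham_DE replicate 2 or 4. In sham depletion Raph1 was 0.0011 with limma on log2(FPKM + 0.1) and -0.13 to 0.064 with 1 library left out, Fgr -0.18 without those 2 libraries, and Ptpn11 -0.0019 to 0.094 with 1 library left out. Csf1r in occlusion with microglia was 0.010 in both limma fits. Replicate numbers were not taken to pair libraries: deviations of same-numbered libraries correlated at r = -0.064 to 0.106, others at -0.138 to 0.136, and 4 of 13 libraries correlated best with their own number. The block ended 2 calls of the 8 genes, Ptpn6 in sham depletion and Vav1 in occlusion with microglia. Counts of 1 to 25 per library limit Bin2, Vav1 and Pik3ap1 in depleted brains, and tMCAO_DE has 2 libraries.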
